A study of Mus musculus with 42 samples.

Results

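NMDA receptors are glutamate-gated cation channels, and the genes of 6 of their subunits were followed in 2 types of inhibitory neuron of the mouse cerebellar cortex. The genes are Grin1, Grin2a, Grin2b, Grin2c, Grin2d and Grin3a, chosen by name as members of the family, and their members here are all probe sets that the array's annotation assigns to 1 of these symbols alone. The rule found 11 probe sets for 5 of the 6 symbols, out of 34958 probe sets and 18194 genes with 1 symbol. No probe set carried the symbol Grin1 alone, so Grin1 was not analysed here. Grin2b had 4 probe sets, Grin3a 3, Grin2d 2, and Grin2a and Grin2c 1 each. All 11 passed the filter on dim values, which asked for 3 or more arrays over a log2 level of 5, as did 32918 of the 34958 probe sets.

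An NMDA receptor joins the obligatory subunit GluN1, the product of Grin1, with GluN2 subunits, which bind glutamate and set the channel's kinetics and magnesium block, or with GluN3 subunits, which bind glycine and lower calcium entry. In many brain regions early receptors are rich in GluN2B and GluN2D, and GluN2A or, in cerebellar granule cells, GluN2C is added later. Purkinje cells, whose axons leave the cerebellar cortex, are known for small NMDA receptor currents, while molecular layer interneurons carry NMDA receptors that respond to glutamate spilling out of nearby synapses.

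The study profiled gene expression in Purkinje cells and in Stellate/Basket cells, the interneurons of the molecular layer, over postnatal development. All mice were CB6-Tg(Gad1-EGFP)G42Zjh/J, the G42 line, which carries a Gad67-GFP bacterial artificial chromosome, and all were labelled male. Cells were released from cerebellar slices by mild protease digestion while AP5, an NMDA receptor antagonist, CNQX and TTX were present, and were picked by hand on green fluorescence and the size of the cell body, so each group holds the cells that this choice passed. The polyA fraction of the RNA went through 2 rounds of amplification. The Purkinje groups held 3 arrays each at postnatal day 3, 7 and 14 (P3, P7, P14) and 4 each on days 21, 28, 35 and 56. Stellate/Basket cells were sampled at P14 (4 arrays), P21 (3), P28 (4), P35 (2) and P56 (2), after 2 of the 42 deposited columns were left out because they equal the mean of 2 other columns of their group. That left 40 arrays. The labels call the replicates biological and do not say whether animals were pooled. The series text states 3 replicates, while several groups were deposited with 4 columns.

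The labelled cell types were set against marker lists, and 3 sets of arrays stood apart. Over the 10 measured Purkinje markers the mean log2 level was 12.7 to 12.9 in Purkinje groups from P14 on, but 8.28 at P3 and 9.83 at P7. In these same P3 and P7 groups the 8 molecular layer interneuron markers averaged 9.62 and 9.81, against 6.57 to 6.75 in the later Purkinje groups, and the 6 Golgi and unipolar brush cell markers 8.42 and 8.37, against 6.01 to 6.40. The Stellate/Basket groups had interneuron markers at 11.1, 11.1, 10.9 and 10.5 from P14 to P35 but at 7.02 at P56. The Purkinje markers averaged 8.90, 9.81, 10.6, 10.4 and 11.9 in these groups from P14 to P56. The P56 arrays labelled Stellate/Basket thus had low levels of the transcripts that define their label, and the averaged cell type differences and the tests over the age series are also given without P56. The Purkinje changes from P3 or P7 to P14, and the comparisons with P56 itself, have no value without these arrays. In Stellate/Basket groups, in order of age, the 12 markers of astrocytes and Bergmann glia averaged 7.20, 9.23, 10.1, 9.38 and 10.5. Xist, which is expressed from an inactive X chromosome, was above 10 in 27 of the 40 arrays despite the male label, in 14 of 15 Stellate/Basket and 13 of 25 Purkinje arrays. It was at most 6.59 in the P14 Purkinje arrays and at least 12.8 in the P14 Stellate/Basket arrays, so each comparison was also run with its level as a covariate. Among Stellate/Basket groups only P35 had arrays on both sides of 10, at 12.5 and 7.55, so mainly Purkinje arrays set the adjustment. At P14 the covariate cannot separate Xist level from cell type. With it the averaged differences of Grin3a 1436575_at and 1438866_at and Grin2b 1457003_at, described next, were -2.20, -3.12 and -1.04, and all 3 were still called. In RNA from sorted cells, fewer cells of a type and less RNA per cell cannot be told apart.

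Grin3a, which encodes the glycine-binding subunit GluN3A, differed most between the cell types among the 5 genes measured and was lower in Purkinje cells. A probe set was called when its adjusted p, from limma with Benjamini-Hochberg adjustment over the 32918 probe sets, was under 0.05 and its log2 difference at least 1 in size. Its standard error and p rest on 1 spread per probe set, pooled over the 12 groups. That spread can differ from the spread of the groups compared. Averaged over the 5 shared ages, 3 of the 11 member probe sets were called, each of them lower in Purkinje cells, where 10.3% of all probe sets tested were called. They were 2 of the 3 probe sets of Grin3a and 1 of the 4 of Grin2b. The median difference over the 11 members was -0.38, against 0.01 over all probe sets. Without P56 again 3 of the 11 were called, where 11% of all probe sets were, and the medians were -0.39 and 0.05.

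At P14 the Grin3a probe set 1436575_at read 7.03, 6.86 and 6.81 in the 3 Purkinje arrays and 10.31, 9.08, 10.32 and 10.22 in the 4 Stellate/Basket arrays, as log2 levels. At P28 it read 7.27, 7.80, 6.99 and 7.02 in Purkinje cells and 9.16, 8.51, 8.98 and 8.81 in Stellate/Basket cells. Every Stellate/Basket array was above every Purkinje array of its age, and this held at all 5 shared ages. At P21 the Purkinje arrays lay between 6.75 and 7.00 and the Stellate/Basket arrays read 8.68, 9.92 and 10.34. At P35 the Purkinje arrays lay between 6.62 and 7.16 and the Stellate/Basket arrays read 9.84 and 8.71, and at P56 the Purkinje arrays lay between 6.54 and 6.77 and the Stellate/Basket arrays read 8.01 and 8.43. The difference averaged over the ages was -2.28 ± 0.14 (SE), which is 4.84-fold lower in Purkinje cells (adjusted p = 3.78e-15). It was -2.45 without P56.

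The Grin3a probe set 1438866_at read 5.02, 4.92 and 5.11 in the P14 Purkinje arrays against 9.66, 8.54, 9.72 and 9.28 in the P14 Stellate/Basket arrays. From P14 on all 19 Purkinje arrays lay between 4.84 and 5.16, near the low end of the scale, where the values carry no detection call. In Stellate/Basket cells the level read 9.86, 9.53 and 9.25 at P21, then 9.14, 9.20, 7.98 and 8.37 at P28. It was 8.64 and 6.91 in the P35 arrays and 6.97 and 5.05 in the P56 arrays. All Stellate/Basket arrays up to P35 were above all Purkinje arrays of their age, while at P56 the groups overlapped, since 1 Stellate/Basket array lay at the Purkinje level. The averaged difference was -3.23 ± 0.16, or 9.39-fold (adjusted p = 3.13e-17), and -3.78 without P56. Folds against a group this near the low end are uncertain.

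The third Grin3a probe set, 1458378_at, stayed between 5.24 and 5.79 in all 40 arrays and did not differ between the cell types beyond its error (0.01 ± 0.05). It lay at the 26.5th to 41.4th percentile of the probe sets of its array, low on the scale, and its values carry no detection call. The probe sets of Grin3a therefore disagree, but a flat reading this low is weak evidence about the gene. The group means of the 2 that moved correlated at r = 0.96 over the 12 groups, while 1458378_at correlated with them at -0.08 and -0.14. These correlations describe 12 group means that share arrays and normalization.

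**Figure D1:**
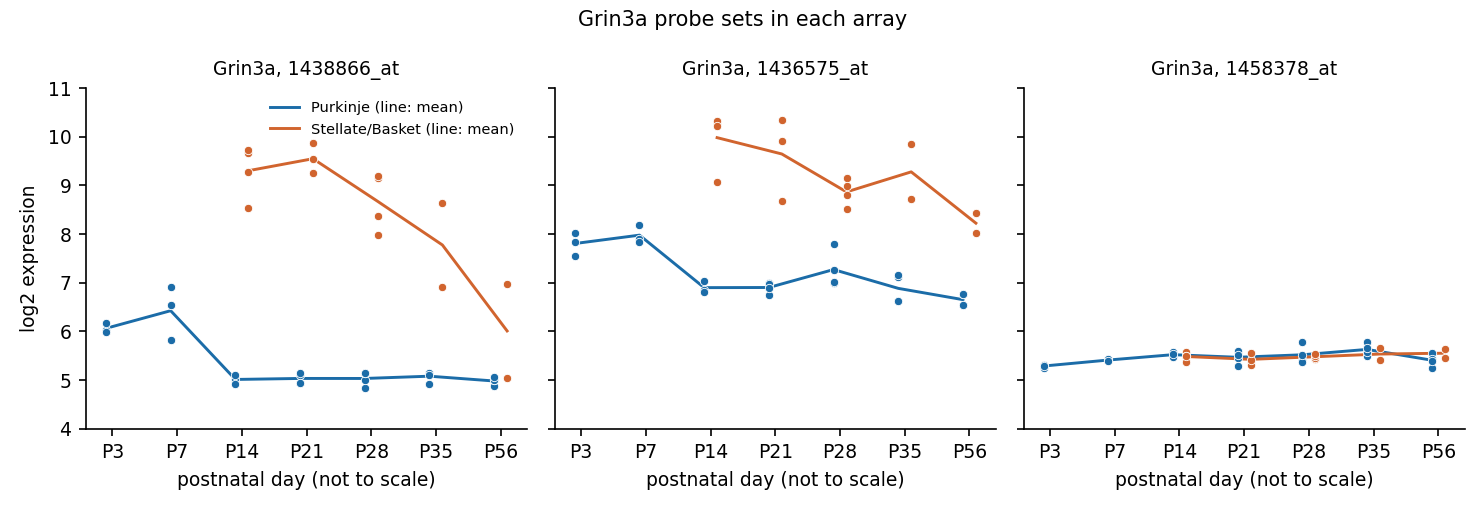
Log2 expression of the 3 Grin3a probe sets in each array (points) with the group mean (lines), by postnatal day and cell type. For 1436575_at and 1438866_at the Stellate/Basket arrays lie above the Purkinje arrays of their age up to P35, and at P56 1 Stellate/Basket array of 1438866_at, at 5.05, lies among the Purkinje arrays; 1458378_at stays between 5.24 and 5.79.

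In order of age from P14 to P56, the differences of 1436575_at were -3.08 ± 0.30, -2.74 ± 0.30, -1.59 ± 0.27, -2.39 ± 0.34 and -1.57 ± 0.34, all called. Those of 1438866_at were -4.29 ± 0.35, -4.51 ± 0.35, -3.64 ± 0.32, -2.69 ± 0.39 and -1.03 ± 0.39 at the same ages. The last, with an adjusted p of 0.0353, was -0.07 without Stellate/Basket P56 replicate 1 and -1.98 without replicate 3, and it was not called with Xist as a covariate (adjusted p = 0.0669). With array weights, whose estimation stopped before it converged, neither probe set was called at P56 (adjusted p = 0.108 and 0.303). Of the 11 member probe sets 3, 3, 2, 2 and 3 were called in that order of ages, every one of them lower in Purkinje cells, where 12.1%, 12.2%, 15.2%, 9.85% and 18.4% of all probe sets tested were called.

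**Figure D2:**
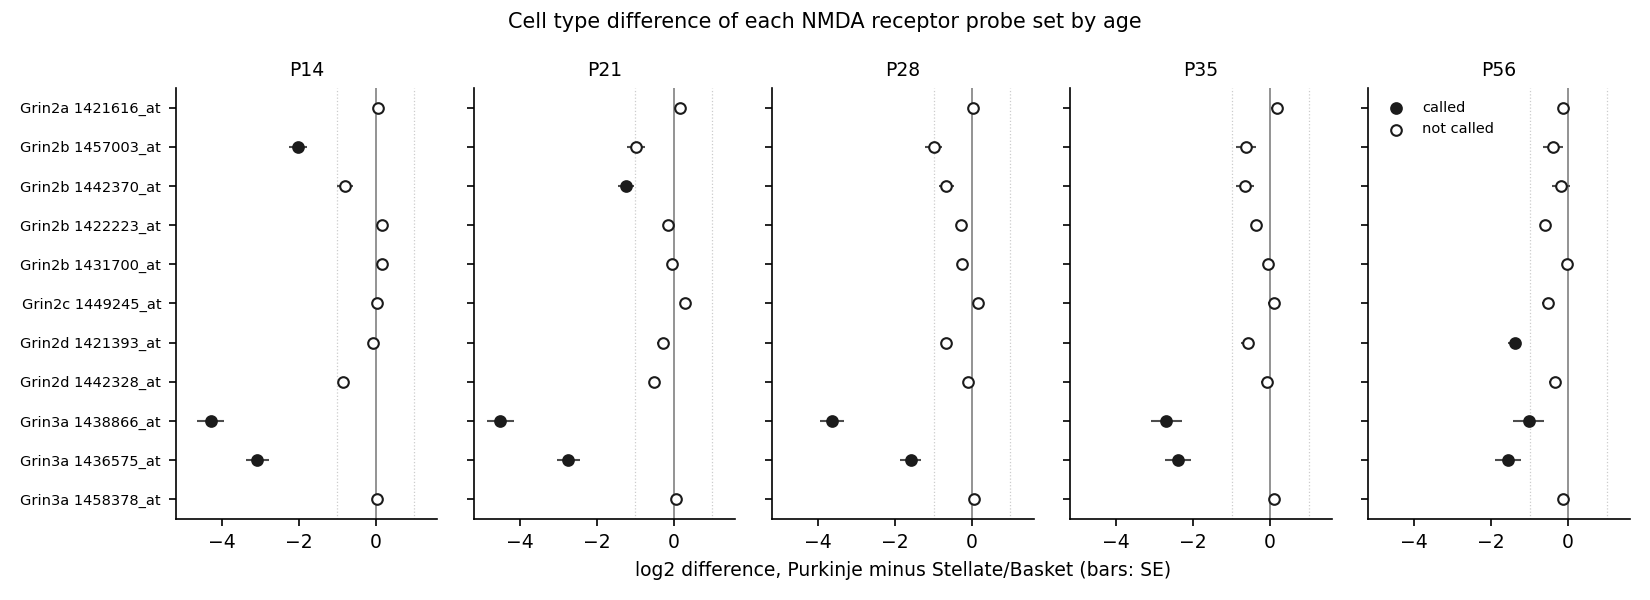
Log2 difference, Purkinje minus Stellate/Basket cells, of the 11 NMDA receptor probe sets at each shared age, with its standard error; filled points were called and dotted lines mark a difference of 1 in either direction. The Grin3a probe sets 1436575_at and 1438866_at were called at every age, from -4.51 at P21 to -1.03 at P56 for the latter, and 1457003_at of Grin2b was called at P14 alone.

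Grin3a also changed with age within each cell type. In Purkinje cells 1436575_at read 7.85, 7.55 and 8.02 at P3 and 7.90, 8.19 and 7.84 at P7, all above the P14 arrays at 6.81 to 7.03. The other, 1438866_at, read 6.03, 6.18 and 5.98 at P3 and 6.55, 5.82 and 6.91 at P7, again all above the P14 arrays. From P7 to P14 the probe sets fell by 1.08 ± 0.32 (adjusted p = 0.0138, and 0.0569 with Xist as a covariate) and 1.41 ± 0.37 (adjusted p = 0.00571). From P3 to P14 the differences were -0.91 ± 0.32, under the size needed for a call, and -1.05 ± 0.37 (adjusted p = 0.0407), the latter not called when any 1 array of P3 or P14 was left out (-0.99 to -1.10) or with Xist as a covariate (adjusted p = 0.125). The interneuron markers averaged 9.81 in the Purkinje arrays of P7 and 6.70 in those of P14, and their part in the result was not tested. From P14 to P56 neither probe set differed beyond its error in Purkinje cells (-0.25 ± 0.30 and -0.03 ± 0.35).

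In Stellate/Basket cells 1436575_at fell by 1.11 ± 0.27 from P14 to P28 (adjusted p = 0.00525), although the groups overlapped, with P14 replicate 2 at 9.08 and P28 replicate 1 at 9.16. Without Stellate/Basket P28 replicate 2 the difference was -0.996, just under the size for a call. The difference of 1438866_at over this interval was -0.63 ± 0.32 and was not called. From P14 to P56 the differences were -1.76 ± 0.34 (adjusted p = 0.000133) and -3.29 ± 0.39 (adjusted p = 8.87e-08), and from P14 to P35 they were -0.70 (not called) and -1.53 (adjusted p = 0.0105). The latter was -0.66 and not called without P35 replicate 2, and -2.39 without P35 replicate 1. Much of the fall thus lay in the P56 arrays, in which interneuron markers averaged 7.02 against 11.1 at P14. Of single steps, 1438866_at fell by 1.77 ± 0.45 from P35 to P56 (adjusted p = 0.00663), and this was not called without P35 replicate 1 (-0.90) or P56 replicate 3 (-0.81). It was the only member called at that step, at which 9.92% of all probe sets were called. From P14 to P28 the glial markers went from a mean of 7.20 to 10.1 and the Purkinje markers from 8.90 to 10.6, and the part of these marker lists in the Grin3a result was not tested.

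Between the cell types, the change of 1436575_at from P14 to P28 differed by 1.49 ± 0.40 (adjusted p = 0.02), with 0.37 in Purkinje and -1.11 in Stellate/Basket cells. Of the 11 members 2 were called in this comparison, where 4.46% of all probe sets were, the other being 1457003_at of Grin2b. The call on 1436575_at was lost without Purkinje P14 replicate 3 (adjusted p = 0.0549) and with P35 in place of P28 (0.69, adjusted p = 0.494). No call was made for 1438866_at (0.65 ± 0.47).

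Grin2b encodes GluN2B, the subunit of slowly closing receptors that is typical of young neurons. Its 4 probe sets gave different pictures, and the clearest change was in 1457003_at, which was high in the youngest arrays of both cell types and lower later. In Purkinje cells it read 8.22, 8.13 and 7.81 at P3, 7.71, 7.27 and 6.76 at P7, and 5.61, 5.71 and 5.75 at P14. The 3 ages did not overlap. From P3 to P14 it fell by 2.36 ± 0.25, or 5.14-fold (adjusted p = 7.68e-09), and from P7 to P14 by 1.55 ± 0.25. The step from P3 to P7, -0.81 ± 0.25, was not called (adjusted p = 0.533). After P14 the Purkinje arrays lay between 5.24 and 5.75 up to P35 and between 4.94 and 5.47 at P56, and the change from P14 to P56 was not called (-0.49 ± 0.23, adjusted p = 0.168).

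A second Grin2b probe set, 1442370_at, had a like course in Purkinje cells. It read 6.42, 5.31 and 5.10 at P3 and 6.04, 5.42 and 5.45 at P7, and between 4.46 and 4.75 in all 19 later arrays, near the low end of the scale. From P3 to P14 it fell by 1.04 ± 0.23 (adjusted p = 0.000938), a value that 1 array carried in large part: without P3 replicate 1 it was -0.63. Nor was it called with array weights (-0.95) or once P14 replicate 1 was left out (-0.98). In the step from P7 to P14 it fell by 1.06 ± 0.23 (adjusted p = 0.000818), and without P7 replicate 1 the value was -0.86. Over the 11 members, 3 were called from P3 to P14 (12.6% of all probe sets tested) and 4 from P7 to P14 (11.2%), all falling and all of Grin2b or Grin3a. The P3 and P7 arrays are those with interneuron markers at 9.62 and 9.81 and Golgi and unipolar brush cell markers at 8.42 and 8.37, whose part in the fall of Grin2b was not tested.

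In Stellate/Basket cells 1457003_at read 7.87, 6.91, 8.40 and 7.69 at P14, 6.91, 6.92 and 5.92 at P21, and 6.55, 6.25, 6.40 and 6.52 at P28. The P35 arrays read 6.30 and 6.15 and the P56 arrays 5.49 and 5.69. The P14 arrays were all above the P28, P35 and P56 arrays. From P14 to P28 the level fell by 1.28 ± 0.22 (adjusted p = 8.21e-05). The differences from P14 were -1.49 at P35 and -2.13 ± 0.27 at P56 (adjusted p = 2e-07), both called. Over these ages Purkinje markers went from 8.90 at P14 to 10.6 at P28, 10.4 at P35 and 11.9 at P56, glial markers from 7.20 to 10.1, 9.38 and 10.5, and interneuron markers from 11.1 to 10.9, 10.5 and 7.02. Their part in the fall of Grin2b was not tested. The step from P14 to P21, -1.13 ± 0.23, was the only member call at that step, where 1.65% of all probe sets were called, and it was lost without P14 replicate 3 (-0.90) or P21 replicate 3 (-0.80). From P14 to P28, 2 of the 11 members were called (4.81% of all probe sets), and from P14 to P56 3 were (16.7%), all falling.

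Set against Purkinje cells of the same age, 1457003_at differed by -2.03 ± 0.23 at P14 (adjusted p = 4.24e-08), the only age at which it was called. The differences at P21 and P28 were -0.99 ± 0.23 and -0.99 ± 0.22, just under the size for a call with adjusted p of 0.00188 and 0.000482, and past it with Xist as a covariate (-1.02 and -1.03). They were -0.63 ± 0.27 at P35 and -0.39 ± 0.27 at P56. No Stellate/Basket array fell among the Purkinje arrays of its age at any of the 5 ages. The average over ages was -1.01 ± 0.11 (adjusted p = 2.96e-09), and it crosses the size for a call by little: it was -0.95 after quantile normalization or after centring each array on its median, -1.16 without P56, and between -0.96 and -1.07 when single arrays were left out. The change from P14 to P28 differed between the cell types by 1.03 ± 0.32 (adjusted p = 0.0401), with -0.25 in Purkinje and -1.28 in Stellate/Basket cells. That call was lost with Xist as a covariate (adjusted p = 0.0509) and without Stellate/Basket P14 replicate 3 (0.81, adjusted p = 0.101). With P35 in place of P28 it was 1.39 (adjusted p = 0.0271), and this was not called in 7 of the 13 runs that left out 1 array (1.17 to 1.66).

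The probe set 1442370_at read 5.54, 5.17, 5.47 and 5.31 in Stellate/Basket cells at P14, 5.69, 5.42 and 6.53 at P21 and 5.30, 5.26, 5.04 and 5.51 at P28. All were above the Purkinje arrays of their age. The difference was called at P21 alone (-1.24 ± 0.22, adjusted p = 4.35e-05), and without Stellate/Basket P21 replicate 3 it was -0.91 and not called. The average over ages was -0.71 ± 0.10 (adjusted p = 4.78e-07), below the size for a call, and -0.84 without P56. With Xist as a covariate the P14 difference, -0.80 ± 0.22, became -1.16 and was called. At P14 the covariate cannot separate Xist level from cell type, so the adjusted value does not decide the P14 difference.

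The other Grin2b probe sets moved little. All 40 arrays of 1431700_at lay between 7.00 and 7.64, and this probe set has the highest mean of the 4, so it stands for Grin2b wherever 1 probe set per gene was used; it differed by -0.05 ± 0.05 between the cell types. The arrays of 1422223_at lay between 5.61 and 6.77. In Purkinje cells it read 6.53, 6.21 and 6.64 at P14 and 5.62, 5.99, 5.61 and 5.83 at P56, groups that did not overlap, and the difference of -0.70 ± 0.12 (adjusted p = 0.000213) was below the size for a call. Purkinje P56 replicates 1, 3 and 4 had the lowest array medians of all 40 arrays (5.92, 5.95 and 5.91). The part of this shift in the difference was not tested. Over the 12 group means 1457003_at correlated at r = 0.82 with 1442370_at, at 0.19 with 1422223_at and at -0.19 with 1431700_at. Calls for Grin2b thus depend on which of its probe sets is read, and the gene itself was not called in the fit with 1 probe set per gene.

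**Figure D3:**
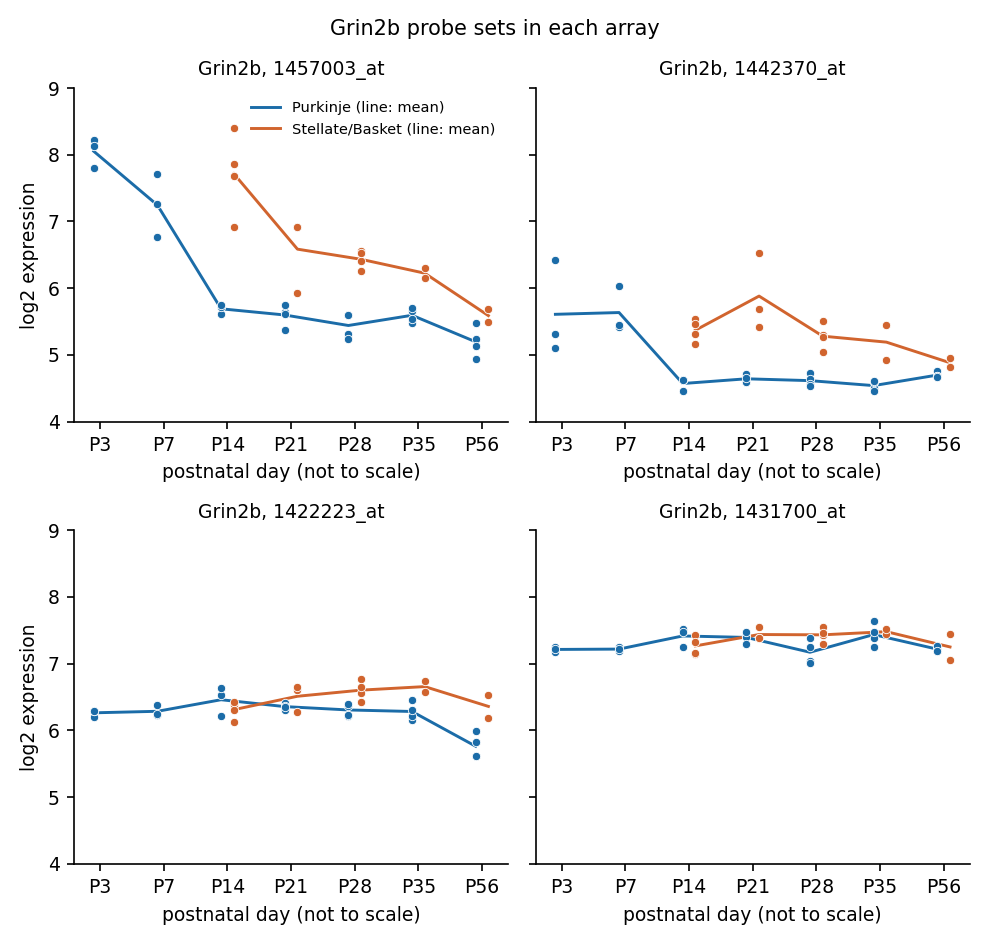
Log2 expression of the 4 Grin2b probe sets in each array (points) with the group mean (lines), by postnatal day and cell type. 1457003_at falls from 8.05 at P3 to 5.69 at P14 in the Purkinje group means and from 7.72 at P14 to 5.59 at P56 in the Stellate/Basket means, while 1431700_at stays between 7.00 and 7.64 in all arrays.

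Grin2d encodes GluN2D, whose receptors close slowest of the family and are blocked weakly by magnesium, and the differences of its 2 probe sets had opposite signs in Stellate/Basket cells. The first, 1442328_at, read 8.69, 8.84, 8.68 and 8.91 at P14, 8.19, 8.57 and 8.53 at P21, and 8.05, 8.02, 8.21 and 7.86 at P28. Its P14 arrays were all above every later Stellate/Basket array, and the difference from P14 to P28 was -0.75 ± 0.13 (adjusted p = 7.29e-05). The second, 1421393_at, read 7.24, 7.32, 7.11 and 7.37 at P14 and 7.58, 7.77, 7.71 and 7.62 at P28, without overlap and in the other direction (0.41 ± 0.14, adjusted p = 0.047). From P14 to P56 the differences were -0.89 ± 0.15 and 0.82 ± 0.17. None of these 4 values reached the size for a call. The value of 0.82 was 1.16 after quantile normalization and 1.20 without P56 replicate 1, both called, and 0.44 without P56 replicate 3. The group means of the 2 probe sets correlated at r = 0.23.

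In Purkinje cells both Grin2d probe sets varied less, 1442328_at between 7.42 and 8.27 and 1421393_at between 6.46 and 7.42. The cell type difference of 1442328_at was -0.85 ± 0.14 at P14 (adjusted p = 1.22e-05), -0.52 ± 0.14 at P21 and -0.11 ± 0.13 at P28. That of 1421393_at was -0.06 ± 0.15 at P14, -0.29 ± 0.15 at P21 and -0.68 ± 0.14 at P28. The first was thus widest at P14 and the second at P56, where Purkinje arrays read 6.64, 7.13, 6.46 and 6.55 and Stellate/Basket arrays 7.70 and 8.46, a difference of -1.39 ± 0.17 (adjusted p = 1.94e-07) and the only Grin2d call. It rests in part on the 2 Stellate/Basket arrays with interneuron markers at 7.02, Purkinje markers at 11.9 and glial markers at 10.5. The Purkinje arrays at 6.64, 6.46 and 6.55 had the lowest array medians of all (5.92, 5.95 and 5.91). Purkinje replicate 2, at 7.13, had a median of 6.03. The part of markers and medians in this call was not tested. Glial markers averaged 7.20 and 10.1 in the P14 and P28 Stellate/Basket groups, between which 1421393_at differed by 0.41, and their part was not tested. Averaged over ages the differences were -0.38 ± 0.06 and -0.60 ± 0.07, both below the size for a call, and -0.39 and -0.40 without P56. The change of 1442328_at from P14 to P28 differed between the cell types by 0.74 ± 0.18 (adjusted p = 0.0115) and that of 1421393_at by -0.62 ± 0.21 (adjusted p = 0.0576).

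Grin2a encodes GluN2A, the subunit of fast receptors that joins as many synapses mature, and Grin2c encodes GluN2C, known from mature granule cells. Both were within a narrow range. Grin2a lay between 4.88 and 5.69 in all 40 arrays, at the 15.3rd to 39.8th percentile of the probe sets of its array. Grin2c lay between 5.25 and 6.19, at the 27.7th to 52.9th percentile. Averaged over ages the cell types differed by 0.05 ± 0.06 in Grin2a and by 0.00 ± 0.06 in Grin2c (0.10 and 0.14 without P56), and neither was called in any comparison of group means. The largest Grin2c difference was at P56, -0.53 ± 0.15 (adjusted p = 0.0053), with Purkinje arrays at 5.48, 5.55, 5.25 and 5.42 and Stellate/Basket arrays at 6.02 and 5.89. Granule cell markers, 8 measured, averaged 5.83 to 6.97 in the Purkinje and 6.70 to 7.38 in the Stellate/Basket groups over all ages. At P56 they averaged 5.83 in Purkinje and 6.78 in Stellate/Basket arrays, and glial markers averaged 6.57 and 10.5. Purkinje P56 replicates 1, 3 and 4 also had the lowest array medians of all. The part of these markers and medians in the Grin2c difference was not tested. Both probe sets sit low on the scale, and their values carry no detection call.

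**Figure D4:**
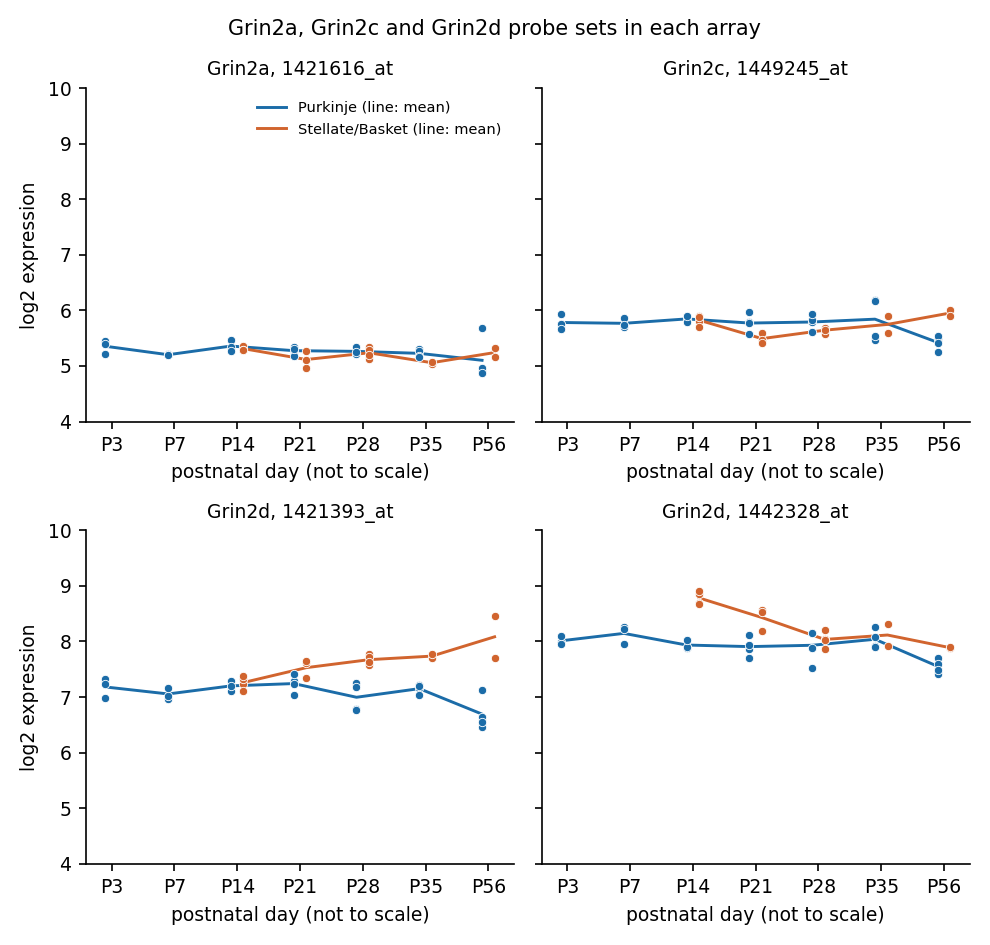
Log2 expression of the Grin2a, Grin2c and Grin2d probe sets in each array (points) with the group mean (lines), by postnatal day and cell type. The Stellate/Basket means of Grin2d go from 8.78 at P14 to 7.89 at P56 on 1442328_at and from 7.26 to 8.08 on 1421393_at, while Grin2a lies between 4.88 and 5.69 throughout.

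The balance of Grin2a or Grin2c against Grin2b was read as their difference within each array, whose change shows unequal change only. On the probe sets that stand for the genes, Grin2c minus Grin2b went from -1.44 at P14 to -1.79 at P28 in Stellate/Basket cells, a change of -0.35. Its exact two-sided permutation p of 0.0286 is the smallest that 4 against 4 arrays allow, and it was 0.171 after Benjamini-Hochberg adjustment over the 6 changes tested. Grin2a minus Grin2b changed by -0.24 over the same interval (exact p = 0.114). In Purkinje cells from P14 to P56 the changes were -0.06 for Grin2a (exact p = 0.914) and -0.22 for Grin2c (exact p = 0.0857, with 0.0571 the smallest that 3 against 4 allow). From P21 to P56 the Purkinje changes were 0.00 for Grin2a and -0.17 for Grin2c (exact p = 0.229 for the latter). None passed the adjustment, but these tests had little room to pass. The Purkinje P14 to P56 tests could not fall under 0.05, and a test at the smallest p of 0.0286 was at 0.171 after adjustment. The absence of a pass therefore does not show an unchanged balance. The Grin2b probe set in these tests, 1431700_at, is one that hardly moved.

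Over the full age series of a cell type, limma's moderated F test called a probe set at an adjusted p under 0.05. Over the 7 Purkinje ages it called 7 of the 11 members, where it called 54.1% of all probe sets: 1422223_at, 1442370_at and 1457003_at of Grin2b, both of Grin2d and both moving ones of Grin3a. Over the 5 Purkinje ages from P14 on it called 4 (28.7% of all): Grin2b 1422223_at, Grin2c and both Grin2d probe sets. None of the members was called without P56, where 5.85% of all probe sets were. Over the 5 Stellate/Basket ages it called 6 (37.6%), namely 1442370_at and 1457003_at of Grin2b, both of Grin2d and 2 of Grin3a. Without P56 it called 4 (14.9%), which were 1457003_at, Grin2d 1442328_at and the 2 of Grin3a. From P14 to P56 in Purkinje cells 0 of the 11 members were called by limma with the size criterion, where 1.76% of all probe sets were. An unadjusted p under 0.05 was reached by 6 of them, all with a lower mean at P56, and by 27.1% of all probe sets. The median difference over all probe sets was -0.06, and the share of them that were both under 0.05 and lower was not counted. Purkinje P56 replicates 1, 3 and 4 had the lowest array medians of all (5.92, 5.95 and 5.91). The part of these medians in the lower values of the members was not tested.

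The genes whose 12 group means were most like a member's were named by Pearson's r. For Grin3a 1436575_at they were Sema4a (0.983), Parm1 (0.975) and Ifitm10 (0.973), and for 1438866_at Syt17 (0.992), Adam11 (0.989) and again Parm1 (0.986). For Grin2b 1457003_at they were Kctd15 (0.984), Prr36 (0.976) and Tmeff1 (0.976). For 1442328_at of Grin2d, Tmem108, Drc1 and Cacna1c each reached 0.960, and for 1421393_at Tspan15 (0.972), S100a16 (0.970) and Sox8 (0.966) were closest. For the other Grin2b probe sets they were Actl10 (0.978), Atoh8 (0.976) and Myoz2 (0.949) with 1422223_at, Hnf4a (0.966), Cela1 (0.939) and Dele1 (0.928) with 1431700_at, and Dleu7 (0.968), En2 (0.968) and Macroh2a3 (0.963) with 1442370_at. For 1458378_at of Grin3a they were Il1a (0.931), Cstdc1 (0.920) and Cdh6 (0.918). Grin2a was closest to Npas1 (0.871), Mtr (0.860) and Hes5 (0.833), and Grin2c to Afmid (0.938), Nacc1 (0.935) and Crybb2 (0.934). Clone and predicted locus symbols and the member's own gene were left out. These values are the highest of the other genes tested and describe 12 means that share arrays.

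Genes that anchor, signal for, feed or carry NMDA receptors were set beside the subunits, 44 of 47 listed genes passing the filter, in the fit with 1 probe set per gene over 17478 genes. Averaged over the shared ages, 11.5% of all genes were called. Of 13 scaffold genes 2 were higher in Purkinje cells, Dlg2 (1.45 ± 0.13), which encodes PSD-93, and Dlgap4 (1.36 ± 0.14). The 2 lower were Shank3 (-1.48 ± 0.11) and Cask (-1.04 ± 0.13), both postsynaptic or synaptic scaffolds. Dlg4, which encodes PSD-95, was not called. The median of the list was -0.01 against 0.02 for all genes. Without P56, where 12.2% of all genes were called, the same 4 scaffold genes were called, with Cask at -1.60, and the median was -0.19 against 0.06 for all genes.

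Of 13 signalling genes 2 were higher and 5 lower in Purkinje cells. Rasgrf1, a Ras activator that binds GluN2B, was at -3.68 ± 0.19, Camk2g, the gamma subunit of the calcium/calmodulin-dependent kinase CaMKII, at -3.50 ± 0.13, and Nos1, the neuronal nitric oxide synthase tethered to the receptor by PSD-95, at -2.08 ± 0.12. Camk2b, the beta subunit, was higher (1.67 ± 0.16). The 4 subunits of CaMKII were thus all called, Camk2a (1.04) and Camk2b higher and Camk2d (-1.59) and Camk2g lower. The median was -0.30. The same 7 genes were called without P56, with Camk2a at 1.70, and the median was again -0.30.

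Of 10 trafficking and auxiliary genes 2 were higher and 3 lower. Lin7a, a member of the complex that carries GluN2B along microtubules, was at -4.68 ± 0.12, and its paralogue Lin7c at -1.18 ± 0.24. Kif3a, a kinesin motor, was at 1.94 ± 0.15, Neto2, best known as a kainate receptor auxiliary subunit, at 1.31 ± 0.15, and Rph3a, which binds GluN2A, at -1.29 ± 0.14. Of 8 genes that make or clear the coagonists glycine and D-serine, 1 was called: Slc7a10, a D-serine and glycine transporter, at -1.05 ± 0.12. Dao, the D-amino acid oxidase of astrocytes, was at -0.86 ± 0.07 and not called. The medians of these lists were -0.04 and -0.47. Without P56 the same 5 trafficking genes were called, but Slc7a10 was not (-0.68), and the medians were -0.00 and -0.50. Glial markers averaged 9.23 to 10.5 in the Stellate/Basket groups from P21 on and 6.57 to 7.29 in the Purkinje groups from P14 on, and their part in the coagonist values was not tested.

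**Figure D5:**
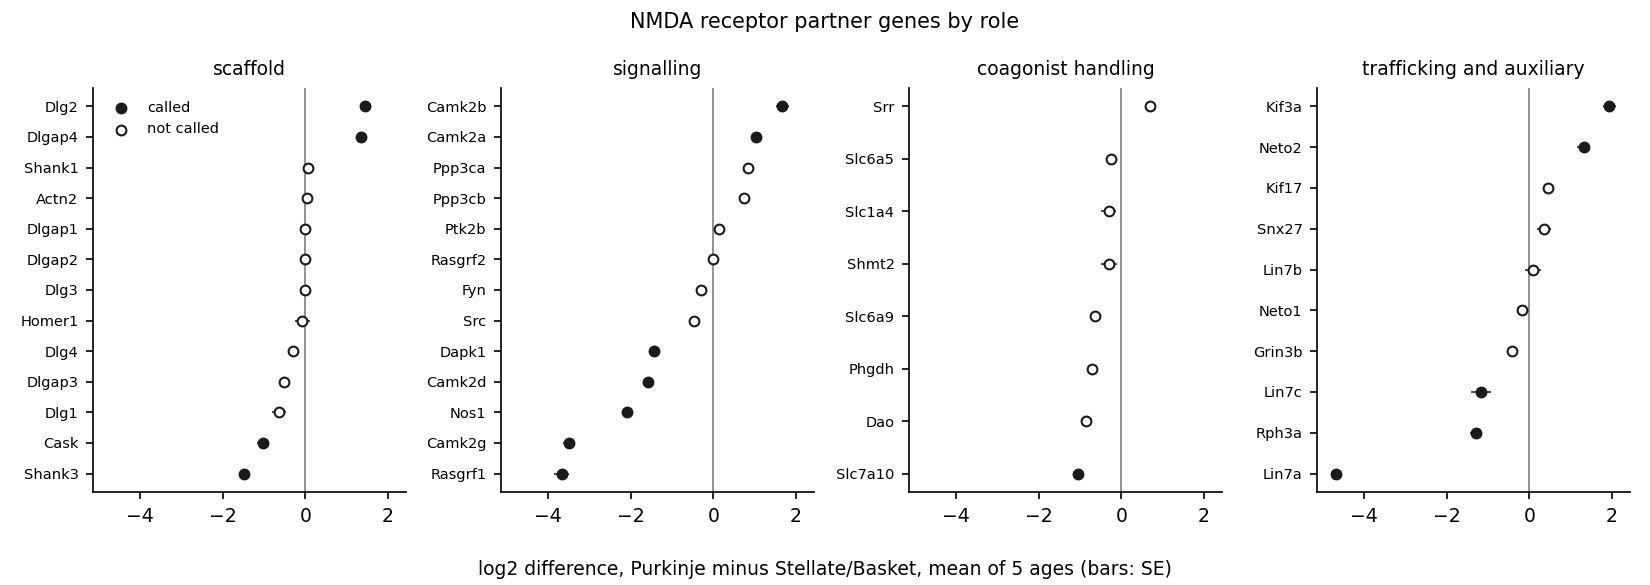
Log2 difference, Purkinje minus Stellate/Basket cells averaged over the 5 shared ages, with its standard error, of the 44 NMDA receptor partner genes by role; filled points were called. Calls lie on both sides of 0 in the scaffold, signalling and trafficking lists, from Lin7a at -4.68 to Kif3a at 1.94, and in the coagonist list only Slc7a10, at -1.05, was called.

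Grin3b, the gene of the related subunit GluN3B, stood in the trafficking and auxiliary list and was not called over ages (-0.43 ± 0.08). It read 6.02 and 7.17 in the Stellate/Basket P56 arrays and between 4.82 and 5.78 in every other array of both cell types. At P56 the difference was -1.59 ± 0.18 (adjusted p = 5.92e-08), in the arrays whose markers go against their label.

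From P14 to P28 in Stellate/Basket cells, where 5.21% of all genes were called, the scaffold genes Dlg1 (1.46 ± 0.32), which encodes SAP97, and Dlgap1 (1.44 ± 0.26) rose and no scaffold gene fell. Among signalling genes Rasgrf1 rose by 1.72 ± 0.37, while Dapk1, a death-associated kinase that binds GluN2B (-1.13 ± 0.21), and Camk2d (-1.04 ± 0.19) fell. The coagonist list had 4 of 8 called: Slc7a10 (1.46 ± 0.24), the glycine transporter gene Slc6a9 (1.29 ± 0.19) and Dao (1.25 ± 0.14) rose and Shmt2, a mitochondrial glycine-forming enzyme (-1.40 ± 0.39), fell. Slc6a9 and Dao are known from astrocytes, whose marker list averaged 7.20 at P14 and 10.1 at P28. Its part in the result was not tested. No trafficking gene was called by limma, and 2 of 10 had an unadjusted p under 0.05, as did 27.7% of all genes, with Neto2 at 0.74 ± 0.30 and Rph3a at -0.68 ± 0.28. The medians of the scaffold, signalling, coagonist and trafficking lists were -0.22, -0.16, 0.33 and -0.19, against -0.01 over all genes.

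From P14 to P56 in Purkinje cells 0 of the 44 partner genes were called by limma, where 1.69% of all genes were. An unadjusted p under 0.05 was reached by 4 of 13 scaffold, 1 of 13 signalling, 1 of 8 coagonist and 2 of 10 trafficking genes, and by 27.9% of all genes. The list medians were -0.00, 0.01, -0.14 and -0.11 against -0.07 over all genes. The 2 of largest size in each list are given. They were 1.19 ± 0.52 for Lin7c (adjusted p = 0.132), 0.84 ± 0.28 for Dlgap1 (adjusted p = 0.043), -0.71 ± 0.16 for Kif17, the motor known for moving GluN2B (adjusted p = 0.00338), and -0.57 ± 0.18 for Phgdh, an enzyme of serine synthesis (adjusted p = 0.0354). The last 3 were below the size for a call. The others were Dlg3 (0.64 ± 0.24), the scaffold SAP102, Ptk2b (-0.36 ± 0.14) and Camk2a (-0.35 ± 0.27), both kinase genes, and Srr (-0.34 ± 0.25), the enzyme that makes D-serine.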

How the data were processed

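Expression was measured on Affymetrix MOE430.2 arrays. The authors deposited 1 log2 value for each probe set and column. R 2.9.1 and GCRMA are named, with no role or order, in the submitters' processing notes. Values ran from 3.94 to 14.6 and array medians from 5.91 to 6.16. They carry no detection calls, and their precision is limited by the number of arrays. Purkinje P56 replicates 1, 3 and 4 had the lowest medians (5.92, 5.95 and 5.91) and the highest 90th percentiles (9.42, 9.27 and 9.49). Stellate/Basket P56 replicate 3 had the highest median (6.16) and the lowest 90th percentile (8.55). No scan date or batch was given.

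Of the 42 columns, 2 equalled the mean of 2 others of their group within 1e-08 in every probe set (Stellate/Basket P35 replicate 3 and P56 replicate 2). Values were not scaled further. Of the probe sets, 34958 carried 1 symbol, 932 several and 9211 none. limma 3.58.1 (R 4.3.3) was fitted to all 40 arrays, giving each of 12 groups a mean and moderating the variances, once over 32918 probe sets (values of the subunits) and once over 17478 genes (partner genes), taking for each gene the probe set of highest mean. A call needs an adjusted p under 0.05 and a log2 difference of at least 1. Differences are Purkinje minus Stellate/Basket, or later minus earlier age. P-values and standard errors use the spread between arrays within groups, pooled over the 12 groups for each probe set or gene. They do not measure the spread of the compared groups alone. For Grin3a 1438866_at the standard deviation was 1.35 in the Stellate/Basket P56 arrays and 0.08 in the Purkinje P56 arrays. The procedure was tested on simulated data, drawn with 1 spread per gene for all groups. That setting does not cover groups whose spreads differ.

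Alternatives covered the dim filter, probe set summary, variance model, array weights, replicate block, normalization, ages used, the averaged columns and leaving out each array; Xist as a covariate and single arrays left out with P35 as the last age were added after seeing the data. The subunits, lists, tests and rules for naming were chosen with earlier results of these data known. Named were all member probe sets, up to 4 called partners of each role with the largest differences (2 where fewer than 2 were called), and the 3 genes most like each member by correlation; Camk2a, Camk2d and Lin7c in the cell type comparison, Dlg4 and Grin3b were named after their values were seen. Python 3.11.15 with matplotlib 3.10.9 drew the figures.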

Additional observations from a re-analysis of the deposited data

Results flagged for a closer look

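In 2 of the 66 groups of 4 arrays examined, 1 array lay far from the others, and chance gives about 1 in 20. Grin2a 1421616_at read 5.69 in Purkinje P56 replicate 2, with the nearest array at 4.96. Grin3a 1436575_at read 9.08 in Stellate/Basket P14 replicate 2, with the nearest at 10.2. The change from P14 to P28 differed between the cell types by 1.03 in Grin2b 1457003_at and by 1.49 in Grin3a 1436575_at, by the test of the difference itself in limma.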

How the results depend on the processing

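No called subunit value changed sign under any alternative run. For the counts of called subunits out of 5 genes or 11 probe sets, the Stellate/Basket P35 to P56 step gave 1 gene and 2 probe sets with a filter at log2 7 or with all 42 columns (0 and 1 as reported) and 0 probe sets with array weights. With the mean of all probe sets of a gene, 0 genes were called at P56, from P14 to P28 in Stellate/Basket cells, in the difference between the cell types in that change, and from P7 to P14 in Purkinje cells, against 1 each. Array weights gave 0 genes and 1 probe set at P56 (1 and 3) and 0 genes from P14 to P56 in Stellate/Basket cells (1). With P35 as the last age that change gave 0 genes, and the difference between the changes 0 genes and 1 probe set (1 and 2). The latter gave 1 probe set after quantile normalization, with Xist as a covariate, or with a replicate block. Xist as a covariate gave 0 genes from P7 to P14 (1), P7 as the first age gave 1 gene to P14 (0), and the F test from P14 on without P56 gave 0 probe sets (4). The causes of these changes in the counts were not tested.

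Leaving out 1 array gave 0 to 1 genes and 1 to 3 probe sets for Purkinje P3 to P14, 0 to 1 genes for P7 to P14, 0 to 1 genes and 0 to 2 probe sets for the difference between the changes, 0 to 1 probe sets for Stellate/Basket P14 to P21, 0 to 1 genes and 0 to 1 probe sets for P21 to P28, 0 to 1 genes and 1 to 2 probe sets for P14 to P28, and 0 to 1 genes and 0 to 2 probe sets for P35 to P56. Over all genes the same runs called 2303 to 2552 for Purkinje P3 to P14 and 838 to 959 for Stellate/Basket P14 to P28. They called 604 to 1023 for the difference between the changes. With all 40 arrays these were 2488, 910 and 861 of 17478 genes. With all arrays 12.7% of genes were called for Purkinje P7 to P14. For Stellate/Basket P14 to P21, P21 to P28 and P35 to P56 the shares were 1.77%, 1.01% and 11.6%. Deviations of same-numbered arrays of other groups correlated at a median of -0.003 over 191 pairs, against 0.002 for 539 other pairs. These pairs were pooled over all cell types and ages. Whether the numbers pair Purkinje and Stellate/Basket arrays of the same age was not tested apart. In the fit paired by number, the replicate block left Grin2b 1457003_at uncalled in the difference between the changes (1.02, adjusted p = 0.0524) and Grin3a 1438866_at uncalled at P56 (-0.95, adjusted p = 0.0542). Signal near the low end of the scale limits Grin2a, Grin2c, Grin2b 1442370_at and Grin3a 1438866_at in Purkinje cells.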
